A study of Mus musculus with 6 samples.

Results

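The annexins were read across Müllerian ducts of control and mutant mouse embryos at E17.5, together with S100a10, the S100 protein that binds annexin A2. The members were the transcript clusters of the array whose platform gene symbol is Anxa1, Anxa2, Anxa3, Anxa4, Anxa5, Anxa6, Anxa7, Anxa8, Anxa11 or S100a10. All 10 were present, with 1 row each, among 22206 transcript clusters of which 19572 carried a symbol. The family was selected on the measured mutant-control difference of Anxa3, which was positive, so that difference is given as a description, without an error or a p-value.

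The ducts were isolated whole, as tubes of epithelium and mesenchyme that later become oviduct, uterus and the upper part of the vagina. The 3 control embryos had the genotype Lats1f/f,Lats2f/f. The 3 mutant embryos had the genotype Lats1f/f,Lats2f/f,Amhr2cre/+, that is, the same floxed alleles of the Hippo kinases Lats1 and Lats2 with Cre recombinase in 1 copy of the Amhr2 locus, which is active in duct mesenchyme. The controls carried no Cre, so the groups also differed in an Amhr2 allele. Each embryo gave 1 Affymetrix array with deposited log2 signals. All 10 members lay above the background of every array, taken as the median signal of the array's antigenomic background probes.

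Annexins are cytosolic proteins that bind phospholipid membranes when calcium rises. Their conserved core holds the calcium sites, and their variable N-terminal tail sets their partners, so that annexin A2 joins S100a10 and annexin A1 joins S100a11. They take part in membrane repair, vesicle traffic, exocytosis and the organisation of cortical actin, and some act outside the cell, where annexin A2 with S100a10 binds plasminogen activators and annexin A1 signals through formyl peptide receptors.

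Several facts of the whole series bear on these values. Array medians lay between 6.87 and 6.95 and background medians between 5.35 and 5.88. Lats1 had a mutant minus control difference of -0.78 ± 0.21 (SE) on the log2 scale (limma adjusted p = 0.0958) and Lats2 of 0.22 ± 0.21 (adjusted p = 0.684); no source used here places the probes relative to the floxed exons, so these values are no check of the deletion. Amhr2 fell by 3.73 (adjusted p = 0.000112). Control 3 stood apart: its 11 urothelial markers had a mean log2 signal of 9.46, against 5.53 to 5.81 on the other 5 arrays, and the 10 smooth muscle markers were also highest there (11.68, against 8.77 to 10.23). Results are therefore also given without control 3 where the value bears on them.

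Anxa3 and Anxa2 separated the genotypes most clearly. Anxa3, an annexin known from neutrophil granules and several epithelia, was 6.29 times as high in mutant ducts, and Anxa2 rose 2.60-fold. Of the 9 members other than Anxa3, only Anxa2 passed an adjusted p of 0.05 in limma's moderated test, and none fell. Over all transcript clusters that adjusted threshold called 2.59% as rises and 0.666% as falls. At an unadjusted p below 0.05 there were 4 positive and 0 negative differences among the 9 members other than Anxa3, beside 8.49% and 6.81% of all transcript clusters. Nothing is read from the members' counts against these shares, because the same contrast chose the family. Anxa2 also passed an adjusted p of 0.01, at which 1.17% of all transcript clusters rose.

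Anxa3 had log2 signals of 9.44, 9.74 and 9.49 in controls 1, 2 and 3. In mutants 1, 2 and 3 it was at 12.32, 12.16 and 12.15. The lowest mutant array lay 2.41 above the highest control array, and the spread within a group was small, with an SD of 0.16 in control and 0.09 in mutant ducts (n = 3 each). The difference of means was 2.65 on the log2 scale, and 37 called transcript clusters had a larger rise. It was 2.62 without control 3. In whole ducts, more cells of a type that expresses a gene and more RNA per cell cannot be told apart.

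**Figure D1:**
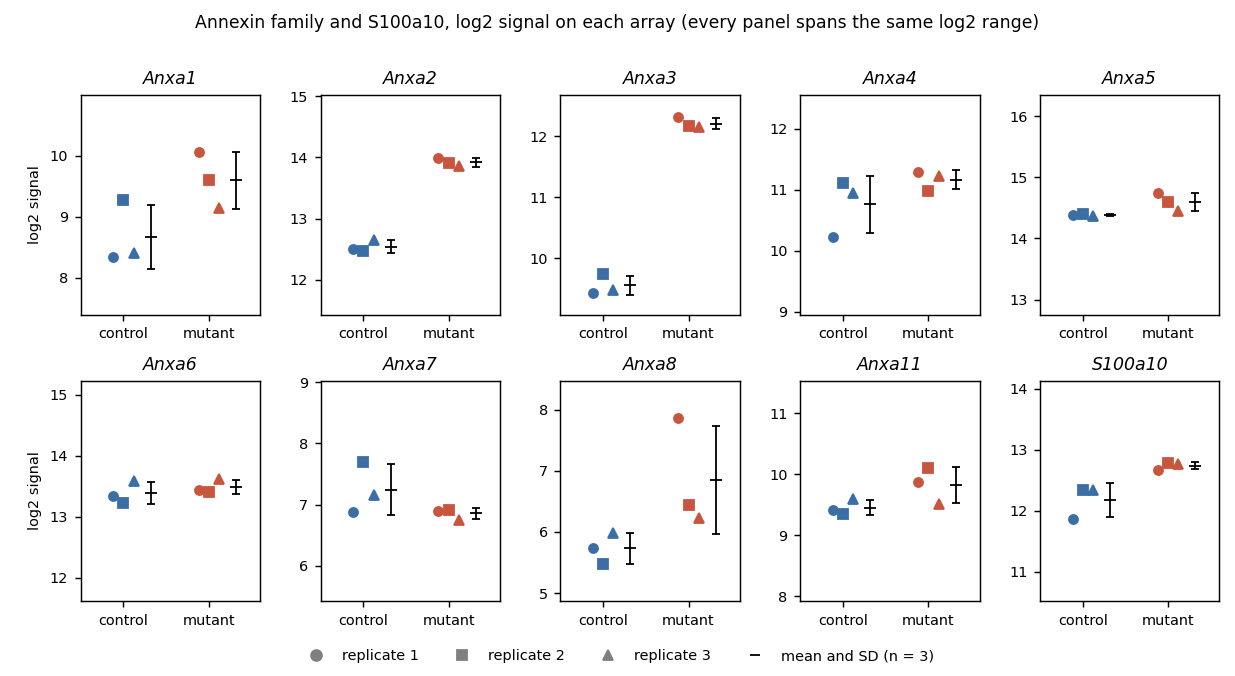
Log2 signal (vertical axis) of the 9 annexins and S100a10 on each of the 3 control and 3 mutant arrays, with 1 panel per gene, symbols for replicates, and bars for the group mean and SD. All panels span the same log2 range; Anxa3 and Anxa2 show the widest gaps between groups, 2.41 and 1.20, while Anxa6 signals of both groups lie within 13.23 to 13.61.

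Anxa2 encodes the annexin that organises membrane patches and carries S100a10 to the cell surface. Its log2 signals were 12.51, 12.46 and 12.65 in controls 1, 2 and 3 and 13.99, 13.91 and 13.85 in mutants 1, 2 and 3. Every mutant array was above every control array, by at least 1.20. The group means were 12.54 ± 0.10 and 13.92 ± 0.07 (SD, n = 3 each), and the difference was 1.38 ± 0.16 (SE), with a 95% interval from 1.03 to 1.73 and a limma adjusted p of 0.00148. Without control 3 it was 1.43 (adjusted p = 0.00379).

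Anxa2 alone of the 9 members other than Anxa3 passed the threshold. Its promoter is shown because no other window of the members held an AP-1 motif. RefSeq windows (build GRCm38.p6, 250 bases before to 50 after the start) were found for 7 of the 10 members, 9 windows in all, under Anxa1, Anxa2, Anxa4, Anxa5, Anxa7, Anxa8 and Anxa11. The bases before the start are printed 5′ to 3′ on the gene's plus strand, chr9:69453433-69453682.
Anxa2: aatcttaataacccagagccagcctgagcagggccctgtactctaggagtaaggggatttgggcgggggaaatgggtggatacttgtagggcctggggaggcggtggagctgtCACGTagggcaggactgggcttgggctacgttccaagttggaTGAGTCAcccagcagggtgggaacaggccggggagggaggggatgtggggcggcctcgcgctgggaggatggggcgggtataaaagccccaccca
Capitals mark a match to the hypoxia response letters ACGTG or GCGTG, beginning at position -137 from the start, and to the AP-1 letters TGANTCA, beginning at position -95. Both strands were searched. A further hypoxia response match began at position 43, outside the printed stretch. AP-1 matches were found in 7.81% of all 32851 RefSeq promoter windows and hypoxia response matches in 43.8%. Among the members, hypoxia response matches were found in 6 of the 9 windows, under 5 of the 7 members. A match is a run of letters and not a measured binding site.

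S100a10, which forms a heterotetramer with annexin A2, differed less than its partner. It was at 11.86, 12.33 and 12.34 in controls 1, 2 and 3 and at 12.67, 12.79 and 12.77 in mutants 1, 2 and 3. The groups did not overlap, with a gap of 0.34, and control 1 was the lowest array. The difference was 0.57 ± 0.18 (SE; 95% interval 0.15 to 0.98), which did not pass the threshold (limma adjusted p = 0.168). Taken within each array, Anxa2 minus S100a10 was 0.65, 0.13 and 0.32 in controls and 1.31, 1.12 and 1.09 in mutants. This within-array difference was therefore higher by 0.81 in mutant ducts, with an exact two-sided permutation p of 0.1, the smallest that 3 arrays against 3 can give. S100a11, the partner of annexin A1, had a difference of 0.47 ± 0.15 (limma adjusted p = 0.174). The corresponding Anxa1 minus S100a11 difference was 0.46 higher in mutants (exact permutation p = 0.3, of 2 such partner pairs examined).

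Anxa1 encodes a glucocorticoid-induced annexin that dampens leukocyte recruitment. It was at 8.33, 9.27 and 8.40 in controls 1, 2 and 3 and at 10.06, 9.59 and 9.13 in mutants 1, 2 and 3. Mutant 3 lay below control 2, so the groups overlapped. The difference was 0.92 ± 0.30 (95% interval 0.24 to 1.61; limma adjusted p = 0.173). It was 1.23 without control 2 (adjusted p = 0.0751) and 0.69 without mutant 1 (adjusted p = 0.415). Control 2 was also the array with the highest S100a8 and S100a9, the calprotectin subunits abundant in neutrophils, at 9.89 and 9.60 against 6.34 to 7.62 and 6.42 to 7.71 on the other arrays; their part in the Anxa1 signal was not tested.

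Among the 7 members with a promoter window, Anxa1 was the only one with a TEAD motif, and the bases before its start are shown for that reason. They lie on the minus strand at chr19:20390672-20390921 (GRCm38.p6, RefSeq) and are printed 5′ to 3′ in the direction of the gene.
Anxa1: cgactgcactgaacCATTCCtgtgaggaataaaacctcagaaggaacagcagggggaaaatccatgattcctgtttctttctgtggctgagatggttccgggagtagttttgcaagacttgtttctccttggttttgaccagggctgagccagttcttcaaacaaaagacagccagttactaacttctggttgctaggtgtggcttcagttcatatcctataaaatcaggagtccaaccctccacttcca
Capitals mark the match to GGAATG, which is on the opposite strand of the printed one and begins at position -236 from the start. Of all RefSeq promoter windows 14.7% held GGAATG on either strand. TEAD factors are the DNA-binding partners of YAP and TAZ, which Lats1 and Lats2 restrain.

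Anxa8, an annexin of late endosomes and stratified epithelia, had a wide spread in mutant ducts. It was at 5.73, 5.47 and 5.98 in controls 1, 2 and 3 and at 7.87, 6.45 and 6.24 in mutants 1, 2 and 3. No mutant array overlapped the controls, but mutant 1 stood far above the other mutants, and the control arrays lay only 0.12 to 0.27 above background. The difference was 1.12 ± 0.38 (95% interval 0.26 to 1.98; limma adjusted p = 0.185), and 0.61 without mutant 1. The size of this difference is of little precision so near to background.

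The remaining 5 annexins had differences between -0.39 and 0.41. Anxa5, whose protein binds phosphatidylserine and labels dying cells, was at 14.39, 14.40 and 14.36 in controls 1, 2 and 3 and at 14.74, 14.59 and 14.45 in mutants 1, 2 and 3. Its groups did not overlap but lay only 0.05 apart, with a difference of 0.21 ± 0.16 (95% interval -0.15 to 0.57; limma adjusted p = 0.598). Anxa6, whose protein core is a tandem duplication and which acts in endosomal and cholesterol traffic, had a difference of 0.09 ± 0.17 (95% interval -0.29 to 0.48).

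Anxa4, an annexin of epithelial cells, was at 10.22, 11.11 and 10.95 in controls 1, 2 and 3 and at 11.29, 10.98 and 11.23 in mutants 1, 2 and 3. Control 1 was low and the groups overlapped, with a difference of 0.41 ± 0.24 (95% interval -0.14 to 0.95) that was 0.14 without control 1. Anxa11, which links RNA granules to lysosomes, was at 9.41, 9.35 and 9.59 in controls and at 9.88, 10.10 and 9.51 in mutants. Its difference was 0.38 ± 0.19 (95% interval -0.06 to 0.81; limma adjusted p = 0.405), and mutant 3 lay among the controls.

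Anxa7, or synexin, which promotes fusion of secretory granules, was the only member with a negative difference. It was at 6.87, 7.69 and 7.16 in controls 1, 2 and 3 and at 6.89, 6.92 and 6.75 in mutants 1, 2 and 3. The groups overlapped, since control 1 lay among the mutants. The difference was -0.39 ± 0.22 (95% interval -0.88 to 0.11; limma adjusted p = 0.461), and -0.16 without control 2.

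**Figure D2:**
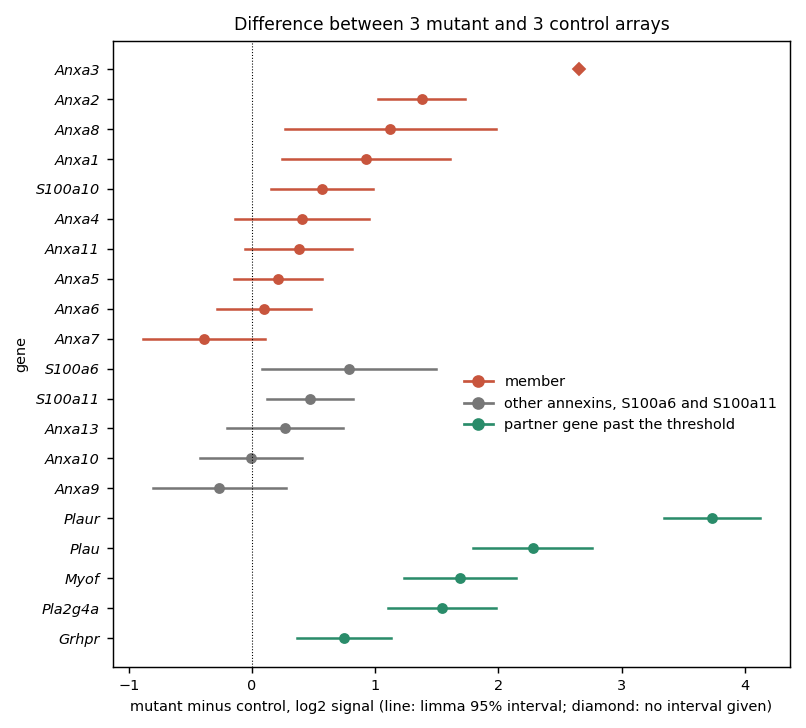
Mutant minus control difference in log2 signal (horizontal axis) for the 10 members, the 3 other annexins with S100a6 and S100a11, and the 5 partner genes past the threshold (genes on the vertical axis); lines are limma 95% intervals and Anxa3 is drawn without one. Among the members drawn with an interval, those of Anxa2, Anxa8, Anxa1 and S100a10 lie above 0, and of these only Anxa2 passed the adjusted threshold.

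The differences varied in size and sign among the members. Of the 10, 9 had a positive and 1 a negative difference, with a median of 0.49, or 0.41 without Anxa3, beside -0.01 over all transcript clusters. Of all 22206 transcript clusters 10773 had a positive and 11433 a negative difference. Nothing is read from the members' signs or median beside these values, because the same contrast chose the family. In 5 of the 10 (Anxa2, Anxa3, Anxa5, Anxa8 and S100a10) every mutant array was above every control array, and in the other 5 the groups overlapped. Over all transcript clusters 10.9% had every mutant array above every control array, and nothing is read from the members' count beside it. Within groups, the SD ran from 0.02 (Anxa5) to 0.52 (Anxa1) in control ducts and from 0.06 (S100a10) to 0.89 (Anxa8) in mutant ducts.

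**Figure D3:**
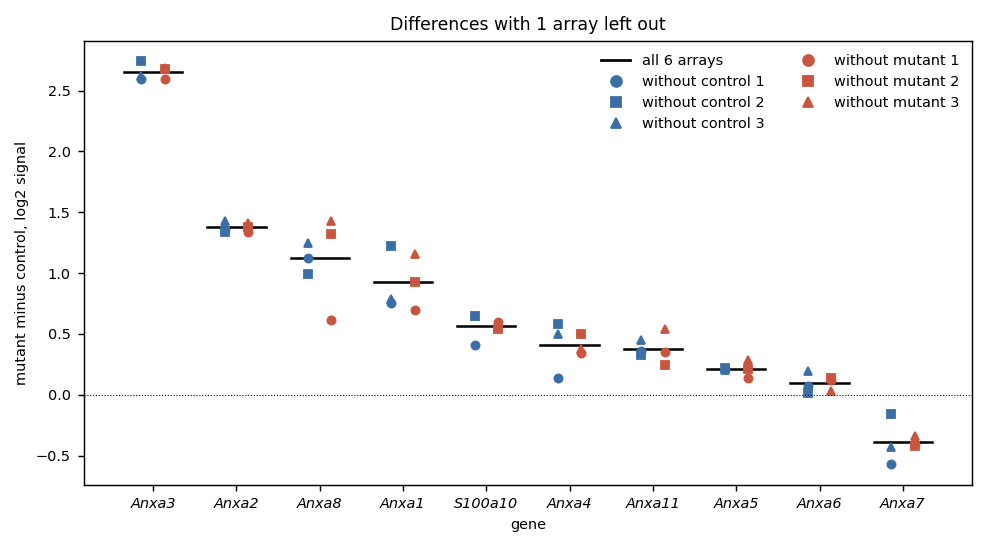
Mutant minus control difference in log2 signal (vertical axis) of each member (horizontal axis) over all 6 arrays (bar) and with each array left out (points). Anxa3 stays between 2.59 and 2.74 and Anxa2 between 1.34 and 1.43, while Anxa8 drops to 0.61 without mutant 1 and Anxa4 to 0.14 without control 1.

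The other annexins of the array were not among the changed genes. Anxa9, an atypical annexin, had a difference of -0.26 ± 0.24 (limma adjusted p = 0.671). Anxa10 and Anxa13, known from stomach and intestine, were below background on all 6 arrays. None of these 3 passed at an unadjusted p below 0.05 either.

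Genes that act with annexins were read from lists of related genes. Of 16 in the S100 list (15 S100 genes and S100pbp, whose protein binds an S100 protein), none passed the threshold of limma's test, and at an unadjusted p below 0.05 there were 2 positive and 3 negative differences, beside 8.49% and 6.81% of all transcript clusters. The S100 median was 0.04. S100a6, calcyclin, which binds annexin A11, had a difference of 0.78 ± 0.31 (limma adjusted p = 0.271), which was 0.48 without control 1. S100a8 had a difference of -1.43 ± 0.59 (adjusted p = 0.292), which was -0.60 without control 2.

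Among 19 measured genes of membrane repair and annexin binding, 2 rose and none fell, where 2.59% of all transcript clusters rose and 0.666% fell, and the list's median was 0.09. At an unadjusted p below 0.05 there were 3 positive and 0 negative differences, where the shares over all transcript clusters were 8.49% and 6.81%. Myof, which encodes the ferlin myoferlin that acts in membrane fusion and repair, was at 9.29, 9.71 and 9.95 in controls 1, 2 and 3. It was at 11.46, 11.35 and 11.20 in mutants 1, 2 and 3, well clear of every control. The rise was 1.69 ± 0.20 (limma adjusted p = 0.00201). The other was Grhpr, a reductase of glyoxylate metabolism that is no known repair protein, with 0.75 ± 0.17 (adjusted p = 0.0499), a call lost whichever of the 6 arrays was left out (adjusted p from 0.0712 to 0.188). Dysf, which encodes the related ferlin dysferlin, had a difference of 0.34 ± 0.25, and Cav1, caveolin 1, of 0.01 ± 0.25.

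The cell-surface plasminogen system, which annexin A2 with S100a10 serves as a docking site, had 2 rises and no fall among 6 measured genes. Over all transcript clusters 2.59% rose and 0.666% fell. The list was chosen with earlier results known, so nothing is read from its count. Plaur, the urokinase receptor, was at 6.16, 6.48 and 6.57 in controls 1, 2 and 3 and at 10.16, 10.06 and 10.19 in mutants 1, 2 and 3, a rise of 3.73 ± 0.17 (limma adjusted p = 1.73e-05). Plau, urokinase, rose by 2.28 ± 0.21 (adjusted p = 0.000631). Plat, the tissue plasminogen activator that annexin A2 also binds, had a difference of 0.33 ± 0.16 (adjusted p = 0.374), and plasminogen itself (Plg) was below background on all arrays.

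Of 6 measured genes for formyl peptide receptors and phospholipases A2, Pla2g4a rose and none fell. It encodes the cytosolic phospholipase A2 that frees arachidonic acid and that annexin A1 is known to restrain. Its signals were 10.95, 11.06 and 10.75 in controls 1, 2 and 3 and 12.30, 12.29 and 12.80 in mutants 1, 2 and 3. The groups did not overlap, and the rise was 1.54 ± 0.20 (limma adjusted p = 0.00283). Of the receptor genes listed, only Fpr-rs3 and Fpr-rs4 were measured, and both were below background on every array. Fpr1, Fpr2 and Fpr3 were listed but had no row under those symbols, so nothing is known of them here. Over the 5 lists together, 5 of 50 measured genes rose and none fell, where 2.59% of all transcript clusters rose and 0.666% fell. At an unadjusted limma p below 0.05 the 50 genes had 9 positive and 3 negative differences, beside 8.49% and 6.81% of all transcript clusters. Without control 3 there were 4 rises and 0 falls among the 50 genes, and 2.54% of all transcript clusters rose. All 5 lists were chosen with earlier results known, so nothing is read from the counts of a list or of all 5 together.

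**Figure D4:**
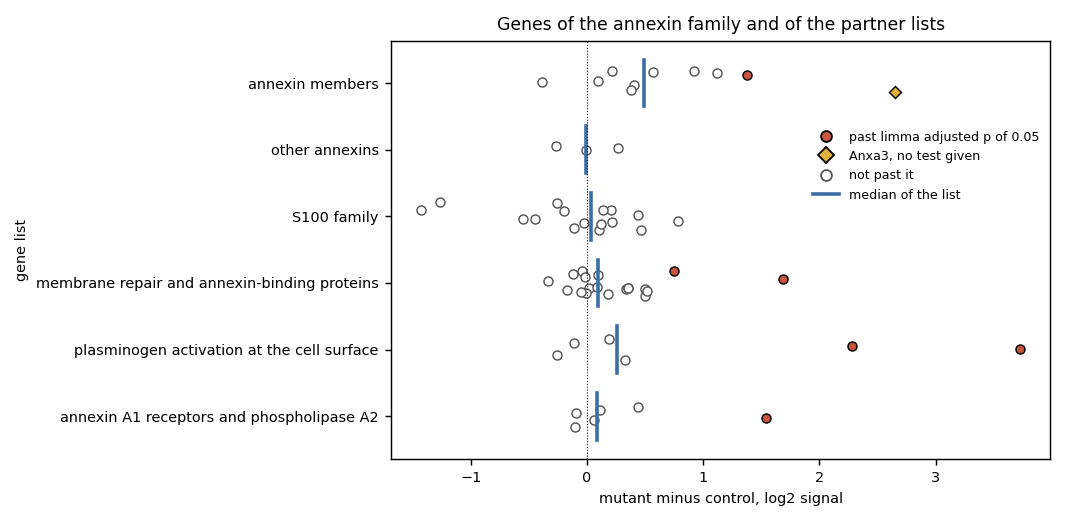
Mutant minus control difference in log2 signal (horizontal axis) of each measured gene in the annexin family and the 5 partner lists (vertical axis, 1 row per list); filled circles passed a limma adjusted p of 0.05, the diamond is Anxa3, and bars are list medians. The filled circles are Anxa2 (1.38), Myof (1.69), Grhpr (0.75), Plaur (3.73), Plau (2.28) and Pla2g4a (1.54), and no test is given for Anxa3.

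The genes whose profile over the 6 arrays was most like that of the member with the largest difference in each direction were found by the root mean square difference of log2 signals, each centred on its own mean, among 11817 genes above background in both groups. Nearest to Anxa3 were Atp10a (0.17), a phospholipid-transporting ATPase, Fry (0.19), Crim1 (0.23), Thbs1 (0.24), which encodes thrombospondin 1, and the kinase gene Nuak1 (0.25). Their mutant minus control differences ran from 2.31 for Crim1 to 2.80 for Nuak1, which follows from the matching to Anxa3 and is no separate result. Nearest to Anxa7 were Chst8 (0.10), Top2a (0.10), D130040H23Rik (0.10), Slc6a17 (0.10) and Rad54l (0.10), all highest in control 2, as Anxa7 was. That likeness too follows from the matching.

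Markers of other cells moved with some of these values. The counts called in these lists stand beside 2.59% of all transcript clusters that rose and 0.666% that fell. Macrophage and leukocyte genes rose in 9 of 13 cases, with 0 falls, and their mean log2 signal was 8.57 to 8.66 in control and 9.67 to 10.02 in mutant ducts; none was below background throughout. Immediate early and stress genes, a sign of tissue handling among other things, rose in 5 of 14 cases, with means of 8.02 to 8.58 in control and 9.28 to 9.36 in mutant ducts, and Junb was below background throughout. Of 10 smooth muscle markers Tagln, transgelin, rose by 2.92 ± 0.30 (limma adjusted p = 0.00108) and the actin-binding Synpo2 had the opposite change, -2.64 ± 0.33 (adjusted p = 0.00286). Acta2, smooth muscle actin, was at 14.04, 15.76 and 17.57 in controls 1, 2 and 3. It was at 17.85, 17.67 and 17.85 in mutants 1, 2 and 3. Every mutant array was above every control array, but control 3 lay close to the mutants. The difference was 2.00 ± 0.69 (limma adjusted p = 0.191), with an SD of 1.76 in control ducts. Its value without control 3 is not given here. The mean of the smooth muscle list was 8.77 to 11.68 in control and 9.78 to 10.23 in mutant ducts, and none of its genes was below background throughout. The part of these 3 lists in the differences of Anxa2 and Anxa3 was not tested.

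On control 3, where urothelial markers were high, no member stood apart to a like degree. Against the mean of all 6 arrays, the urothelial list deviated by 3.13 on control 3. The members deviated by between -1.39 (Anxa3) and 0.15 (Anxa6) there, a measure that also holds the genotype difference. Within the 3 controls alone, the urothelial mean ran from 5.53 to 9.46, while the range of a member was between 0.03 (Anxa5) and 0.94 (Anxa1). The urothelial genes Krt5 and Krt20 were below background on all arrays. Of 13 epithelial markers 1 rose, Lhx1, which was below background on all arrays. The epithelial list had means of 8.78 to 9.72 in control and 8.71 to 9.43 in mutant ducts, so that the ranges overlapped. Endothelial markers (10.61 to 10.69 and 10.44 to 10.72) and mesothelial markers (10.21 to 10.50 and 10.31 to 10.71) overlapped too, with 1 rise in 8 and 1 in 7. The shares over all transcript clusters were 2.59% for rises and 0.666% for falls. Of 11 genes listed as Müllerian mesenchyme markers 1 fell, Amhr2, and the list's mean was 11.29 to 11.52 in control and 10.65 to 11.14 in mutant ducts. The list also holds Wnt7a and was not checked for being specific to mesenchyme. At an unadjusted limma p below 0.05 the 11 had 1 positive and 4 negative differences, Amhr2 among the latter. The shares over all transcript clusters at that level were 8.49% and 6.81%. Without Amhr2, an allele of which differs between the groups by design, the means were 11.34 to 11.58 and 11.06 to 11.50 and overlapped, with Hoxa13 below background on every array.

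**Figure D5:**
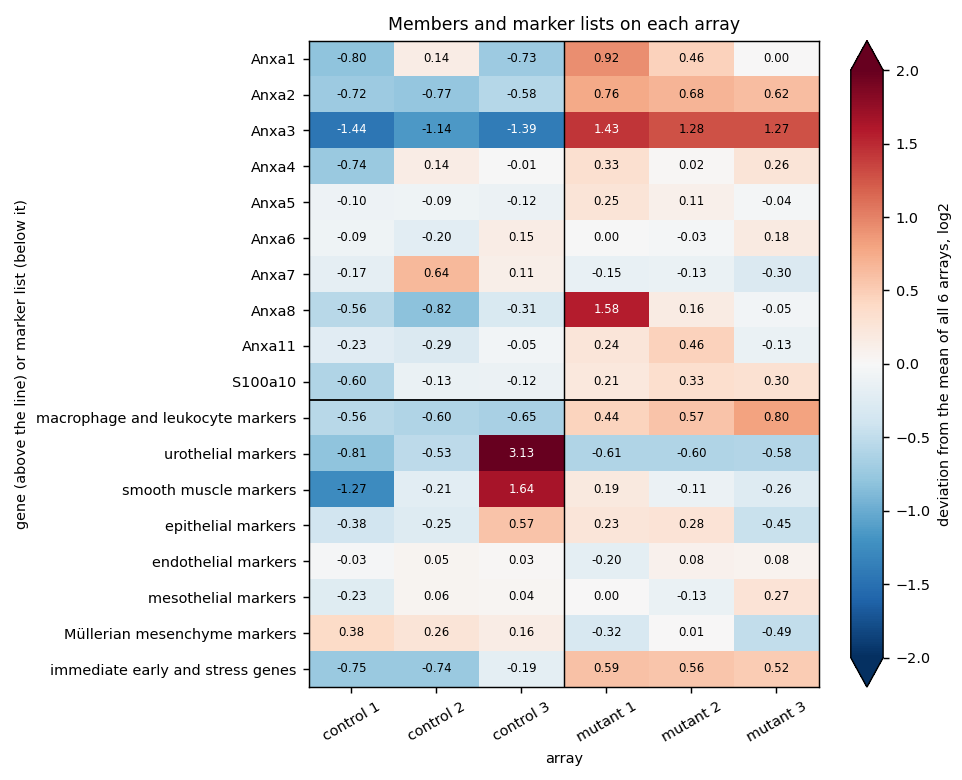
Deviation of each member, and mean deviation of each marker list, from the mean of all 6 arrays in log2 units (colour and printed value), with arrays on the horizontal axis and genes and lists on the vertical axis. Anxa2, Anxa3 and S100a10 are below their means on all control and above them on all mutant arrays, as are the macrophage and the immediate early lists, whereas the urothelial list stands out on control 3 alone (3.13).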

How the data were processed

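Total RNA of 6 Müllerian ducts was measured on Affymetrix arrays, 1 per embryo; per the labels, embryos of a genotype are biological replicates. The log2 signals deposited by the authors were used as given. The submitters' processing notes name Transcriptome Analysis Console 4.0; the summarisation and normalization method and the genome build are not given in the sources used here. Control rows were left out, and the 22206 transcript clusters entered 1 fit (limma 3.58.1 under R 4.3.3, lmFit then eBayes) of mutant against control, with two-sided tests and Benjamini-Hochberg adjustment over all rows at 0.05. Where a gene had several rows, the row with the highest mean was used. Intervals are limma's at 95%, and the number of arrays limits precision. On simulated data of 22206 rows, 44% of changes of 1 and 90% of changes of 2 on the log2 scale were recovered.

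The members and lists were chosen with earlier results of these data known. Named genes are the members, the other annexins, partner genes past the threshold, and the 5 genes nearest to the members with the largest difference up and down; S100a6, S100a8, S100a9, S100a11, Dysf, Cav1, Plat and the marker genes were named with their values known. Alternatives were quantile normalization, a common median, 2 filters on dim rows, the replicate number as a block, a trended and robust prior, weighted arrays, a threshold of 0.01, and each array left out. Promoter sequences are RefSeq's.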

Additional observations from a re-analysis of the deposited data

How the results depend on the processing

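In every alternative run, including the threshold of 0.01 and each array left out, the 9 members other than Anxa3 gave 1 rise (Anxa2) and 0 falls. The difference of Anxa2 ran from 1.32 to 1.43, with limma adjusted p from 8.67e-05 to 0.0113. The difference of Anxa3, a description with no test, ran from 2.59 to 2.74. None of the other 8 members passed in any alternative, and none changed direction; their lowest adjusted p was 0.0751 (Anxa1 without control 2). The partner lists gave 4 to 6 rises and 0 falls. With the trended and robust prior 6 rose, and S100a11 was the addition. With the replicate block 4 rose, since Grhpr was lost (adjusted p = 0.0846), and Anxa2 had an adjusted p of 0.00762. The numbers did not pair the arrays: the correlations of deviations of same-numbered arrays were 0.0078, 0.042 and -0.0030. Anxa8 fell under the filter at the median signal and was not tested there. The mean of a gene's rows was not run for the members, since each had 1 row. Signal near background limits Anxa8, and 3 arrays per group limit the rest.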
